A study of Mus musculus with 2 samples.

Results

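The genes described here are 7 inhibitory receptors of lymphocytes and the 2 ligands of PD-1, 9 genes chosen by name from the 27998 genes of the deposited matrices. The receptor genes are Pdcd1 (PD-1), Ctla4 (CTLA-4), Lag3 (LAG-3), Havcr2 (TIM-3), Tigit (TIGIT), Cd160 (CD160) and Cd200 (CD200), and the ligand genes are Cd274 (PD-L1) and Pdcd1lg2 (PD-L2). CD200 is itself a ligand, of the inhibitory receptor CD200R, and is counted with the receptors because activated T cells carry it. They were read in 2 droplet single-cell RNA libraries, 1 from 12-week-old and 1 from 7-week-old female NOD/ShiLtJ mice, made from cells sorted for CD45.1 out of pancreatic islets. Both groups are of the same strain and sex and carry no other treatment or allele in the labels, and the number of mice behind each library is not given in the sources used here. NOD mice develop autoimmune diabetes spontaneously, and CD45.1 is the form of the leukocyte surface protein CD45 that this strain carries, so the sort takes the leukocytes that infiltrate the islets. With 1 library per age there is no replicate check: no p-value is given, every interval is a 95% interval for counting error alone, and a difference between the libraries cannot be told apart from a difference between the ages.

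Inhibitory receptors are induced when T cells are stimulated through their antigen receptor and they dampen further signalling. PD-1 recruits the phosphatase SHP-2 when PD-L1 or PD-L2 binds it, CTLA-4 takes the costimulatory ligands CD80 and CD86 away from CD28, LAG-3 binds MHC class II, TIM-3 binds galectin-9 and phosphatidylserine among other ligands, TIGIT competes with CD226 for CD155, and CD160 binds HVEM. Several of them present together on one cell are known from T cells under persistent antigen. In NOD mice, blocking PD-1 or PD-L1 is known to bring on diabetes quickly, and regulatory T cells depend on CTLA-4.

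The genes lie on 6 chromosomes of the mouse genome (GRCm38, the build named mm10 in the submitters' processing notes). Pdcd1 (chr1:94038305-94052553, minus strand) and Ctla4 (chr1:60887000-60915832, plus strand) share a chromosome, as do Tigit (chr16:43648867-43664146, minus strand) and Cd200 (chr16:45382135-45409053, minus strand). Lag3 is at chr6:124904361-124911705 (minus strand), Havcr2 at chr11:46454935-46481255 (plus strand) and Cd160 at chr3:96798763-96829351 (minus strand). The ligand genes are neighbours on the plus strand, Cd274 at chr19:29367455-29388095 and Pdcd1lg2 at chr19:29410919-29471161, with 22823 bases between them. All 9 gene identifiers of the matrices match the annotation.

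Promoters of 8 of the 9 genes were found in RefSeq (GRCm38.p6, the C57BL/6J reference and not the NOD sequence), each taken as the 250 bases before an annotated start. The 4 below are shown because their genes carry the comparison in Ccl5-high CD8 T cells: Havcr2, Cd160 and Cd200 were the receptor genes past 1.5-fold between the ages there, and Pdcd1 was not. Capitals mark matches, on either strand, to 5 motif spellings: GGAAA (the core bound by NFAT), TGANTCA (AP-1), TTCNNNGAA (the GAS element), the ISRE element bound by IRF factors and GGTGTGA (T-box factors such as T-bet and Eomes). An ISRE match can contain an NFAT match, and no matches of different motifs overlap in these 4.
Havcr2 (chr11:46454681-46454930, plus strand): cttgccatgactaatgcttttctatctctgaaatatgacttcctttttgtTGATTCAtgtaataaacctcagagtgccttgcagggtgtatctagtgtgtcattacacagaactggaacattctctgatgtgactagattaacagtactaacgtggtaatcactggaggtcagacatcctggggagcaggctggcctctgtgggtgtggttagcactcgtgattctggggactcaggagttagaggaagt
Cd160 (chr3:96814522-96814771, minus strand): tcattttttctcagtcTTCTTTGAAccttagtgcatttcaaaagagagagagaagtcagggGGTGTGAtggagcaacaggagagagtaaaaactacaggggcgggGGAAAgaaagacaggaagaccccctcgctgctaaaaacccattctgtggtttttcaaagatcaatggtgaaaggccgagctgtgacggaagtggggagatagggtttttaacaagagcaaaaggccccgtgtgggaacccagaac
Cd200 (chr16:45409054-45409303, minus strand): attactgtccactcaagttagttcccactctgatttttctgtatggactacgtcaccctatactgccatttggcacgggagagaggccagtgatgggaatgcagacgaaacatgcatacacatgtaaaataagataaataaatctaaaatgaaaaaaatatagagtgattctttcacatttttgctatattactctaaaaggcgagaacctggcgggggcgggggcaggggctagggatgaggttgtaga
Pdcd1 (chr1:94052554-94052803, minus strand): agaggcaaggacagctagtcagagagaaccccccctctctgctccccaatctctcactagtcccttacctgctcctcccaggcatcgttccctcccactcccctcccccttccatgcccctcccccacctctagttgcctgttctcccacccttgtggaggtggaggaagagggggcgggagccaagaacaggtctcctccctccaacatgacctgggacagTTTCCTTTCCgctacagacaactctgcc
The Havcr2 window holds 1 AP-1 match, 200 bases before the start. The Cd160 window belongs to the start inside the gene and holds an NFAT match at 145, a T-box match at 189 and a GAS match at 234 bases, while the window of the start at the 5′ end of the gene (chr3:96829352-96829601) holds none of the 5. The Cd200 window holds none, and the Pdcd1 window holds 2 adjoining NFAT matches, 28 and 23 bases before the start. Over all 32851 promoters of this length, 55.6% hold the NFAT spelling, 6.75% AP-1, 7.02% GAS, 2.98% ISRE and 3.33% T-box. The 3 genes past 1.5-fold have no motif in common, and no match is read as a bound site.

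The 12 week library held 2812 barcodes and 19288252 UMIs (unique molecular identifiers, 1 per captured RNA molecule), of which 2782 cells were kept at a median of 4949 UMIs, and the 7 week library held 1113 barcodes and 8701184 UMIs, of which 1099 cells were kept at a median of 5643. They share 2 barcodes. Cells were put in classes by UMI thresholds on marker genes, none of which is a member. At 12 and 7 weeks these gave 219 and 86 CD8 T cells with 10 or more UMIs of the effector chemokine gene Ccl5 (Ccl5-high), 221 and 74 CD8 T cells with 3 or fewer (Ccl5-low), 839 and 359 CD4 T cells, and 106 and 86 Foxp3+ T cells, of which 59 and 51 are also in the CD4 class. The others were 76 and 95 Ncr1+ cells (natural killer and other innate lymphoid cells express Ncr1), 689 and 182 B cells, 34 and 11 cells rich in C1q, here the macrophage class, and 241 and 89 cells rich in Cst3 and H2-Aa, here the dendritic class. Of the macrophage class, 28 and 10 cells also met the dendritic rule. Defining markers of the labelled cells were present in every class, with summed Cd3d, Cd3e, Cd3g, Lat and Cd2 at 3283 to 4565 CPM (the UMIs of a gene scaled to the same total of UMIs in every class) in the 4 T cell classes, but 63 of the 76 and 79 of the 95 Ncr1+ cells carried Cd3 UMIs, so that class is not one of natural killer cells alone. The dendritic class held more of the 7 macrophage markers (3658 and 2057 CPM at 12 and 7 weeks) than of the 7 dendritic markers (509 and 513 CPM), so it is named here by its rule. RNA of other cells also differed between the libraries, and its part in the results was not tested. The macrophage markers stood at 38.4 and 370 CPM in Foxp3+ T cells, and the T cell markers at 136 and 561 CPM in the dendritic class. RNA of islet endocrine cells (Ins1, Ins2, Gcg, Sst and Chga) ran the other way, at 122 and 19.1 CPM in Ccl5-high CD8 T cells, 1455 and 30.6 CPM in CD4 T cells and 8159 and 58.4 CPM in the dendritic class, Gcg leading the sum in each at 12 weeks. In Ccl5-high CD8 T cells 56.2% and 17.4% of cells held such a UMI, and 54.3% and 5.81% one of the 5 acinar genes. An endocrine UMI was held by 50.2% and 15.6% of CD4 T cells and 78.0% and 36.0% of the dendritic class. The larger CD4 sum at 12 weeks was therefore not spread evenly over the cells.

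Levels of all 9 genes were spread unevenly over the classes at both ages. Pdcd1 and Lag3 were highest in Ccl5-high CD8, CD4 and Foxp3+ T cells, Ctla4 in Foxp3+ T cells, Cd160 in Ncr1+ and Ccl5-high CD8 T cells, Cd200 in CD4 T cells, and Cd274 and Havcr2 in the dendritic class and, for Havcr2 at 12 weeks, at a like level in Ccl5-high CD8 T cells. Tigit was scarce throughout, with 72 UMIs in all 2782 cells at 12 weeks and 54 in all 1099 cells at 7 weeks.

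**Figure D1:**
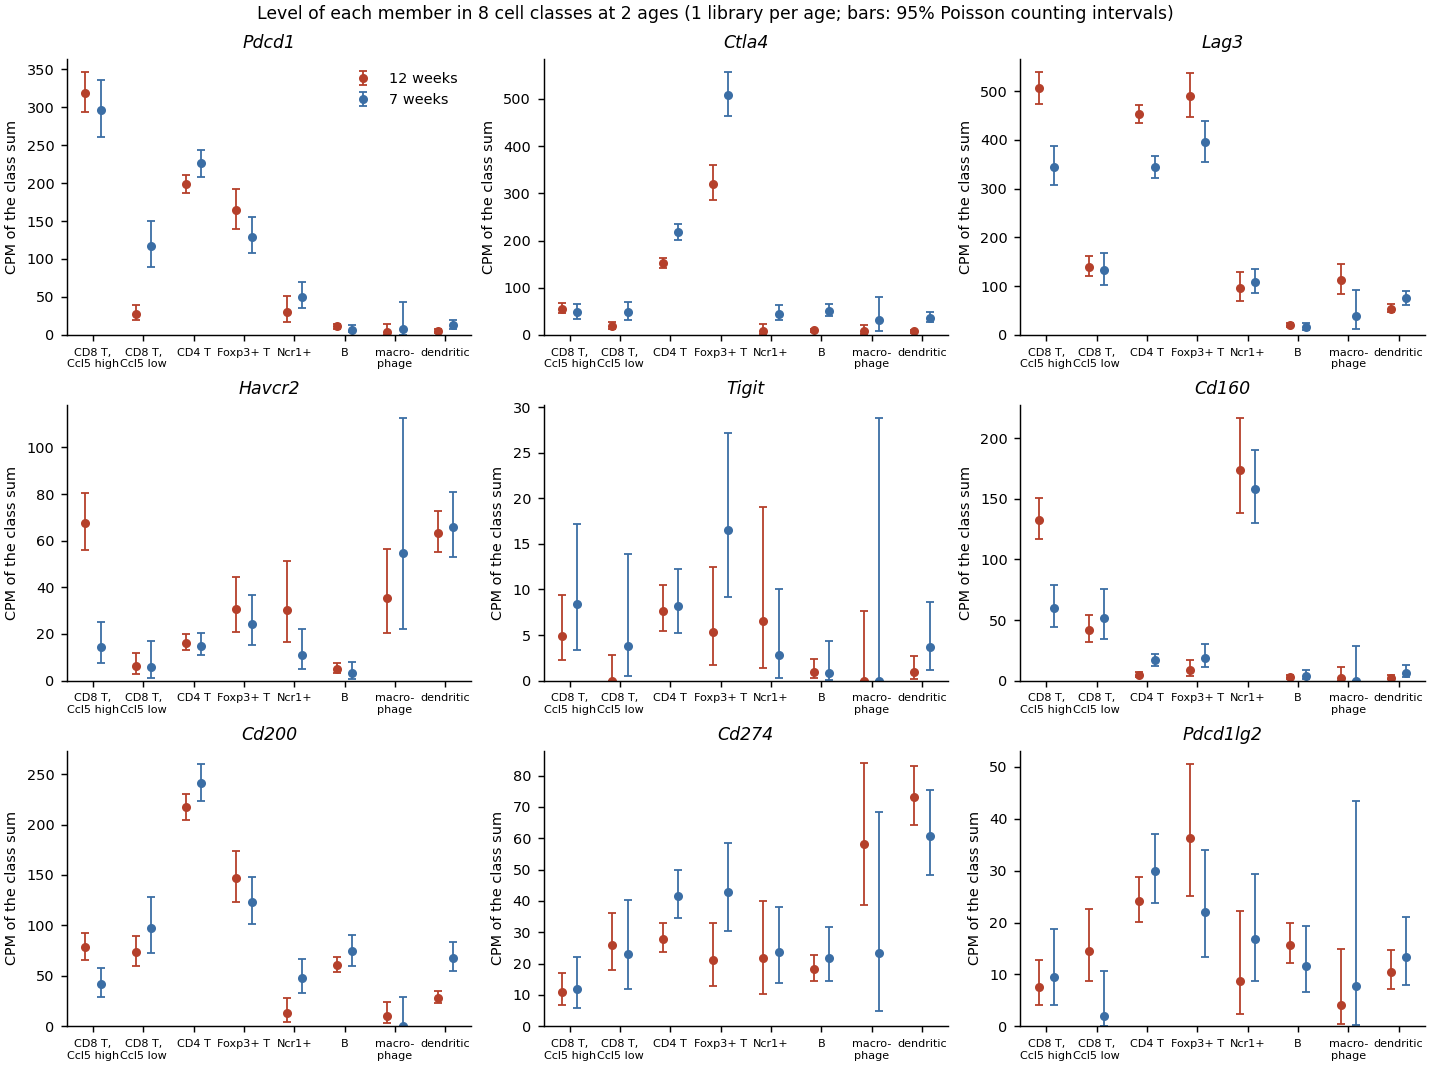
CPM of the summed UMIs of each class (vertical axis) for the 9 genes in 8 cell classes (horizontal axis), with 12 weeks in red on the left of each pair and 7 weeks in blue on the right. Points are 1 library each and bars are 95% Poisson counting intervals. Pdcd1 stands at 319 and 296 CPM in Ccl5-high CD8 T cells and at 28.1 and 117 CPM in Ccl5-low CD8 T cells.

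Ccl5 is a chemokine gene of effector and memory T cells. In Ccl5-high CD8 T cells Havcr2, Cd160 and Cd200 were higher at 12 weeks and Pdcd1 was at a similar level at both ages. Of the 6 receptor genes with 20 or more UMIs over both libraries in this class, 3 were past 1.5-fold higher at 12 weeks and 0 past 1.5-fold lower, against 11.3% of all genes of that depth past it higher and 9.98% past it lower. The median log2 ratio of the 6 was 0.73, against 0.06 for all genes. The cycling share of the class was 30.1% at 12 weeks and 36.0% at 7 weeks.

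Havcr2, whose product TIM-3 is known from terminally differentiated T cells, had 123 UMIs in 60 of 219 cells at 12 weeks (67.4 CPM), against 12 UMIs in 10 of 86 cells at 7 weeks (14.3 CPM). The ratio of 12 to 7 weeks was 4.70 (2.60 to 9.35), and 6.32 (2.04 to 31.7) among cells that were not cycling. Without the 5 cells richest in Havcr2 in each library it was 8.42, the 7 week value then resting on few UMIs. That step takes 5 of the 60 cells with a UMI at 12 weeks and 5 of the 10 at 7 weeks. The libraries are thus cut unequally, and no larger difference is read from the 8.42. After thinning every cell to 2587 UMIs, the depth of the shallowest cell, 12.9% of cells at 12 weeks and 4.01% at 7 weeks held a UMI, a difference of 8.88 points (1.97 to 14.9). B cells, which should lack the gene, held one in 0.621% and 0.733% of cells at the same depth.

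Cd160, encoding a receptor shared by cytotoxic and natural killer cells, had 242 UMIs in 84 cells at 12 weeks (133 CPM) and 50 UMIs in 23 cells at 7 weeks (59.7 CPM), a ratio of 2.22 (1.63 to 3.07). The 5 richest cells held 20.7% of these UMIs at 12 weeks and 46.0% at 7 weeks, and without 5 such cells per library the ratio was 3.16. As this cut is unequal too, no larger difference is read from the 3.16. Cd200 had 143 and 35 UMIs (78.4 and 41.8 CPM), a ratio of 1.87 (1.29 to 2.80). At equal depth the shares of cells differed by 8.60 points for Cd160 (-1.77 to 16.7) and by 6.70 points for Cd200 (-2.90 to 13.8). For both genes the interval of the share thus takes in 0, while that of the level does not take in a ratio of 1. The interval of the level counts every UMI as independent, also those of 1 cell.

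Lag3 was the receptor gene with the most UMIs in this class, 922 in 166 cells at 12 weeks (505 CPM, 473 to 539) and 289 in 57 cells at 7 weeks (345 CPM, 307 to 387). Its ratio of 1.46 (1.28 to 1.68) lay just under the 1.5-fold mark. Pdcd1 had 582 UMIs in 141 cells and 248 UMIs in 53 cells, 319 CPM (294 to 346) at 12 weeks and 296 CPM (261 to 336) at 7 weeks. These intervals overlap, the ratio was 1.08 (0.926 to 1.25), and counting error alone leaves room for up to 1.25-fold higher at 12 weeks. Ctla4 stood at 55.9 and 47.8 CPM with a ratio of 1.17 (0.804 to 1.73). The ligand genes were low here, Cd274 at 10.96 and 11.9 CPM and Pdcd1lg2 at 7.67 and 9.56 CPM.

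Cycling and non-cycling Ccl5-high cells differed in which receptors they carried. Lag3 in cycling over non-cycling cells had a ratio of 0.724 (0.634 to 0.826) at 12 weeks and 0.610 (0.481 to 0.774) at 7 weeks, and Cd160 one of 0.535 (0.407 to 0.700) and 0.490 (0.266 to 0.890). Pdcd1 did not part the same way, at 1.14 (0.966 to 1.35) and 0.937 (0.723 to 1.22). Among non-cycling cells alone the 12 to 7 week ratios were 2.03 for Cd160, 2.10 for Cd200 and 1.31 for Lag3.

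In Ccl5-low CD8 T cells, which include naive and early activated cells, the receptor genes went the other way for Pdcd1 and Ctla4. Pdcd1 had 37 UMIs in 17 of 221 cells at 12 weeks (28.1 CPM), against 61 UMIs in 19 of 74 cells at 7 weeks (117 CPM), a ratio of 0.241 (0.155 to 0.368). Ctla4 had 25 UMIs at each age in classes of unequal size, 19.0 and 47.9 CPM, a ratio of 0.397 (0.219 to 0.720). These were 2 of the 5 receptor genes of sufficient depth past 1.5-fold lower and 0 were past it higher, against 13.3% of all genes past it lower and 13.3% higher. Pdcd1 at equal depth was detected in 4.07% and 16.6% of cells, a difference of -12.5 points (-22.3 to -4.60), above the 1.62% and 1.69% found in B cells, whose median depths of 4705 and 5306.5 UMIs were close to the 5006 and 5331 of this class. Lag3 stood at 140 and 132 CPM, its ratio being 1.06 (0.798 to 1.42), while its share of cells was 12.5% and 23.1%. No order is read from that pair.

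The Ccl5-low class also differed between the ages in other markers, and their part in the Pdcd1 and Ctla4 values was not tested. The 4 regulatory T cell markers, which include Ctla4 and of which none was at 0 in either library, summed to 70.0 and 263 CPM with Ikzf2 leading. The 7 macrophage markers summed to 54.0 and 571 CPM, 2 of them at 0 at 12 weeks and none at 7 weeks. Other lists were higher at 12 weeks, the B cell markers at 196 and 42.2 CPM and the plasmacytoid at 743 and 311 CPM. The acinar markers stood at 102 and 9.59 CPM and the dendritic at 313 and 184 CPM. Ccr7 led the dendritic sum, with 288 of its 411 UMIs at 12 weeks and 75 of its 96 at 7 weeks. That gene also led the list in CD4 T and B cells, so the sum does not stand for dendritic cells alone. Without cells that also met the dendritic rule the ratios were 0.227 for Pdcd1 and 0.342 for Ctla4, and without cycling cells 0.156 and 0.405.

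Ccl5-high over Ccl5-low CD8 T cells within each library gave a larger ratio at 12 weeks for Pdcd1, Lag3, Cd160, Ctla4, Havcr2 and Cd200. For Pdcd1 the Ccl5-high cells had 11.3 times (8.13 to 16.3) the Ccl5-low level at 12 weeks and 2.53 times (1.91 to 3.41) at 7 weeks. For Lag3 it was 3.61 (3.08 to 4.25) and 2.61 (2.0 to 3.45), for Cd160 3.17 (2.36 to 4.33) and 1.15 (0.709 to 1.92), and for Ctla4 2.94 (1.88 to 4.75) and 0.997 (0.590 to 1.71). Havcr2 had 11.1 (5.45 to 26.2) and 2.49 (0.673 to 13.8), on 8 and 3 UMIs in the Ccl5-low cells. Cd200 had 1.06 (0.815 to 1.39) and 0.428 (0.270 to 0.670), so at 7 weeks it was lower in the Ccl5-high cells. How far these ratios differ between the ages was not tested. Behind the Pdcd1 ratios stand 319 and 296 CPM in the Ccl5-high cells and 28.1 and 117 CPM in the Ccl5-low cells. The 29 and 12 CD8 T cells with 4 to 9 Ccl5 UMIs, a class added after values were seen, stood between the others for Pdcd1 at 12 weeks, with 160 CPM, and at the Ccl5-low level at 7 weeks, with 119 CPM.

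**Figure D2:**
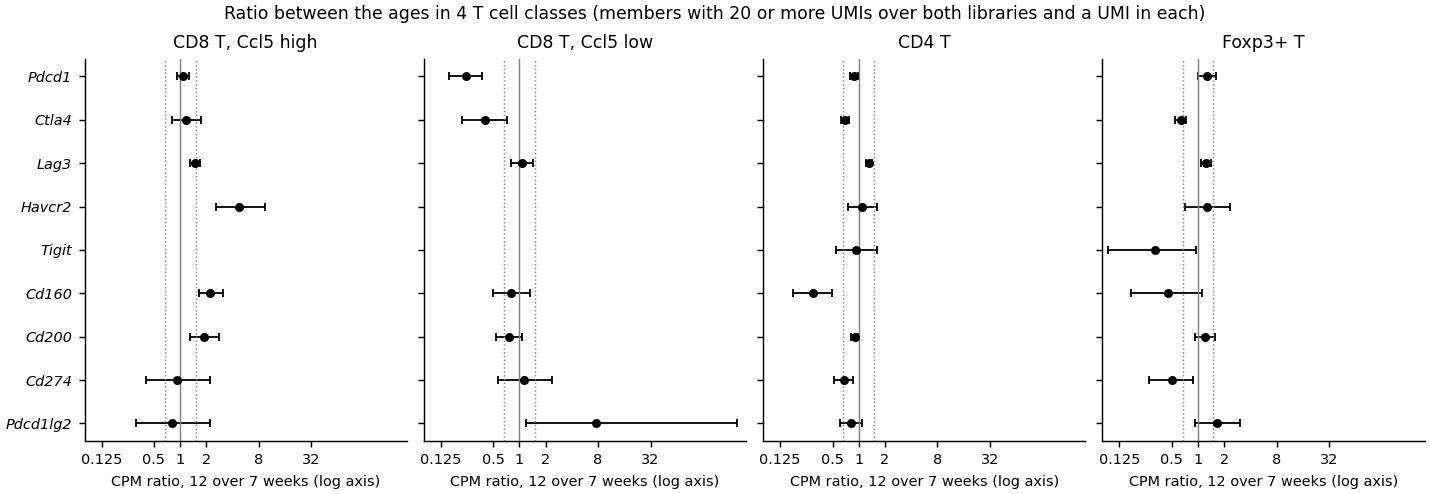
Ratio of CPM at 12 weeks over 7 weeks (horizontal log axis) for each gene with 20 or more UMIs over both libraries and at least 1 in each, in 4 T cell classes. Points are the ratios, bars are 95% counting intervals, the solid line marks 1 and the dotted lines 1.5-fold. Havcr2, Cd160 and Cd200 lie right of the upper dotted line in Ccl5-high CD8 T cells, and Pdcd1 and Ctla4 left of the lower one in Ccl5-low CD8 T cells.

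In CD4 T cells the receptor genes stayed closer together at the 2 ages, and 1 of the 7, Cd160, was past 1.5-fold, lower at 12 weeks, against 6.9% of all genes higher and 11.2% lower. Cd160 had 26 UMIs in 20 of 839 cells at 12 weeks (4.98 CPM) and 47 UMIs in 21 of 359 cells at 7 weeks (16.7 CPM), a ratio of 0.298 (0.177 to 0.491), with 42.3% and 55.3% of the UMIs in 5 cells. At equal depth 1.05% and 2.57% of cells held one, against 0.412% and 0.954% of B cells. Of the CD4 class, 5 cells at 12 weeks and 11 at 7 weeks were also Ncr1+, and their part in the Cd160 values was not tested.

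Lag3 in CD4 T cells had 2365 UMIs in 355 cells at 12 weeks (453 CPM) and 965 UMIs in 192 cells at 7 weeks (344 CPM), a ratio of 1.32 (1.22 to 1.42). The share of cells with a Lag3 UMI at equal depth was 32.8% and 38.2%, a difference of -5.43 points (-11.4 to 0.473), so level and share point opposite ways and no order is read from the share. The median number of Lag3 UMIs in a cell that had any was 4 at 12 weeks and 3 at 7 weeks. Pdcd1 stood at 198 and 226 CPM, its ratio being 0.878 (0.794 to 0.970), and was found in 25.7% and 32.2% of cells (-6.49 points, -12.4 to -1.14). Cd200, which activated and follicular helper CD4 T cells carry, stood at 217 and 241 CPM, and its ratio was 0.899 (0.816 to 0.990).

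Ctla4 in the CD4 class stood at 153 and 218 CPM, its ratio being 0.702 (0.631 to 0.781). Few cells held much of it: 1 cell held 76 UMIs at 7 weeks, 5 cells held 28.8% of the 7 week UMIs, and without 5 such cells per library the ratio was 0.841. In the 780 and 308 CD4 T cells without a Foxp3 UMI, a class added after values were seen, Ctla4 stood at 130 and 112 CPM, its ratio being 1.16 (1.0 to 1.35), on the other side of 1 from the whole class. In the same cells Pdcd1 had a ratio of 0.804 (0.724 to 0.894), Lag3 1.41 (1.3 to 1.54) and Cd160 0.222 (0.126 to 0.381).

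In Foxp3+ T cells Ctla4, which these cells express constitutively, had 301 UMIs in 76 of 106 cells at 12 weeks (321 CPM) and 463 UMIs in 68 of 86 cells at 7 weeks (508 CPM), a ratio of 0.631 (0.544 to 0.731). At equal depth 48.8% and 53.6% of cells held a UMI, a difference of -4.77 points (-18.2 to 9.62). Tigit and Cd160 were also past 1.5-fold lower, on 5 and 15 UMIs for Tigit and 8 and 17 for Cd160, so that 3 of 7 receptor genes were lower and 0 higher, against 16.2% of all genes lower and 14.3% higher. Lag3 stood at 490 and 395 CPM with a ratio of 1.24 (1.08 to 1.43), and Pdcd1 at 164 and 130 CPM with 1.27 (0.990 to 1.62). In this class 0 of the 106 cells at 12 weeks and 9 of the 86 at 7 weeks also met the dendritic rule. Without them Ctla4 stood at 321 and 588 CPM, Pdcd1 at 164 and 157 CPM, and 2 of the 7 receptor genes were past 1.5-fold lower. The Cd160 ratio turned to 2.98 among the 59 and 51 Foxp3+ cells that were also in the CD4 class, from 5 and 2 UMIs, so no direction is read for it.

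Foxp3+ T cells over CD4 T cells without Foxp3 carried more Ctla4 at both ages, by 2.46-fold (2.14 to 2.83) at 12 weeks and 4.54-fold (3.89 to 5.32) at 7 weeks. They carried less Pdcd1, with ratios of 0.820 (0.687 to 0.973) and 0.521 (0.423 to 0.636), and less Cd200, with 0.666 (0.553 to 0.796) and 0.464 (0.376 to 0.568). Lag3 lay at 1.12 (1.01 to 1.24) and 1.27 (1.12 to 1.45). These ratios take all Foxp3+ T cells, of which 59 and 51 were in the CD4 class. In those cells Lag3 stood at 611 and 483 CPM, against 438 and 311 CPM in CD4 T cells without Foxp3. In the same order Pdcd1 stood at 177 and 128 against 200 and 249 CPM. Cd200 stood at 175 and 141 against 221 and 265 CPM, and Ctla4 at 389 and 664 against 130 and 112 CPM.

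CD8 and CD4 T cells carried the receptor genes in different proportions, with more Cd160 in the CD8 cells and more Ctla4 and Cd200 in the CD4 cells. In Ccl5-high CD8 over CD4 T cells, Cd160 had ratios of 26.6 (17.7 to 41.6) at 12 weeks and 3.57 (2.35 to 5.43) at 7 weeks. Ctla4 had 0.366 (0.295 to 0.450) and 0.220 (0.155 to 0.303), and Cd200 had 0.361 (0.301 to 0.430) and 0.173 (0.120 to 0.243). Havcr2 was 4.14-fold (3.11 to 5.52) higher in the CD8 cells at 12 weeks and at 0.959 (0.459 to 1.85) at 7 weeks. Pdcd1 was higher in the Ccl5-high CD8 cells at both ages, by 1.61-fold (1.45 to 1.78) and 1.31-fold (1.13 to 1.52). Lag3 lay at 1.11 (1.03 to 1.20) and 1.0 (0.878 to 1.15). Against Ccl5-low CD8 T cells the CD4 cells had more Pdcd1, at 7.04 and 1.93, and more Lag3, at 3.24 and 2.60. Havcr2 lay at 2.68 and 2.60, on 8 and 3 UMIs in the Ccl5-low cells. Cd160 lay at 0.119 and 0.323, Ctla4 at 8.03 and 4.54 and Cd200 at 2.94 and 2.47.

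Ncr1+ cells carried Cd160 at 174 CPM (138 to 217) at 12 weeks and 158 CPM (130 to 190) at 7 weeks, the highest level of the 8 classes at either age, with overlapping intervals. Cd160 over Ccl5-high CD8 T cells had ratios of 1.31 (1.01 to 1.70) and 2.64 (1.88 to 3.77), so at 12 weeks these 2 classes were near each other. Of 6 receptor genes of sufficient depth in Ncr1+ cells, 1 was past 1.5-fold higher at 12 weeks and 3 lower, against 12.2% of all genes higher and 13.5% lower. Those lower were Pdcd1 (30.5 and 50.3 CPM), Ctla4 (8.71 and 44.7 CPM) and Cd200 (13.1 and 47.5 CPM). These rested on 4 to 14 UMIs at 12 weeks, and the macrophage markers of the class stood at 58.8 and 807 CPM, whose part was not tested.

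Co-detection counts how many of the 7 receptor genes had a UMI in a cell after thinning to 2587 UMIs. In Ccl5-high CD8 T cells, 2 or more were found in 53.5% (46.6 to 60.2) at 12 weeks and 42.0% (31.3 to 53.0) at 7 weeks. They differ by 11.5 points (-0.889 to 23.4), an interval that takes in 0. For 1 or more the shares were 78.5% and 67.1%, 11.4 points apart (0.356 to 22.7), and for 4 or more 10.0% and 4.17%. The mean number was 1.71 and 1.31 per cell. Without thinning, 76.3% and 66.3% of these cells held 2 or more.

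The differences of the other T cell classes from the Ccl5-high class were not tested. In Ccl5-low CD8 T cells 9.64% and 22.6% of cells held 2 or more receptor genes, a difference of -13.0 points (-24.7 to -4.16). In CD4 T cells the shares were 35.0% and 43.0%, -7.93 points (-13.9 to -1.85), and in Foxp3+ T cells 46.3% and 53.0%, -6.72 points (-21.0 to 6.84). B cells, as background, held 2 or more in 1.74% and 1.99% of cells, and the macrophage class in 4.48% and 1.09%. Without thinning, the shares with 2 or more were 14.5% and 37.8% in Ccl5-low CD8, 47.8% and 62.1% in CD4, and 66.0% and 82.6% in Foxp3+ T cells. The 29 and 12 CD8 T cells with 4 to 9 Ccl5 UMIs held 2 or more in 38.0% and 24.2%, 13.8 points (-19.2 to 37.1). Leaving out cycling cells gave 9.75 points in the Ccl5-high class and -9.33 points in CD4 T cells.

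**Figure D3:**
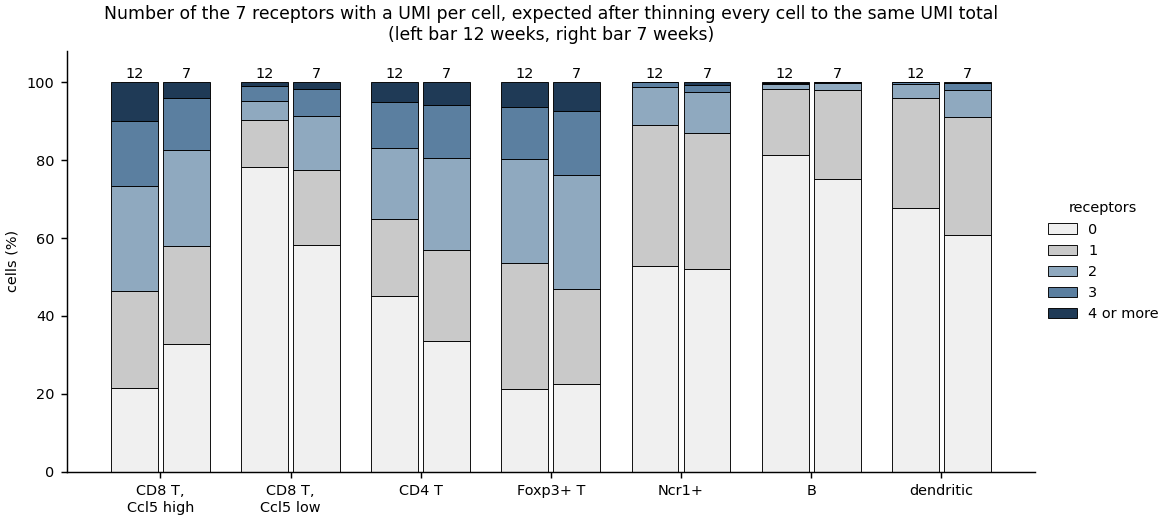
Percent of cells of each class (vertical axis, stacked to 100) with 0, 1, 2, 3 or at least 4 of the 7 receptor genes detected after thinning each cell to 2587 UMIs, with 12 weeks on the left and 7 weeks on the right of each pair. Ccl5-high CD8 T cells hold 2 or more in 53.5% at 12 weeks and 42.0% at 7 weeks, and Ccl5-low CD8 T cells in 9.64% and 22.6%.

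The receptor pairs with the most joint cells were found on the same cells more often than the product of their own shares gives, in both libraries. Picking pairs by their joint cells favours values above the product. Havcr2 with Cd160 in Ccl5-high CD8 T cells had 3.61% against 2.90% at 12 weeks and 0.481% against 0.558% at 7 weeks. Pdcd1 and Lag3 were detected together in 31.3% (25.4 to 38.1) of Ccl5-high CD8 T cells at 12 weeks, where the product is 25.8%. At 7 weeks it was 28.5% (18.8 to 38.6), where the product is 19.5%, so both intervals take in the product. Lag3 was found in 69.5% of the cells with Pdcd1 and 47.0% of those without at 12 weeks, and in 68.2% and 31.5% at 7 weeks. Cells with Pdcd1 thus had Lag3 more often at both ages. In CD4 T cells without Foxp3 Pdcd1 with Lag3 was seen in 15.4% of cells at 12 weeks against a product of 8.19%, and in 18.2% against 11.6% at 7 weeks. Lag3 with Cd200 was seen in 16.7% against 8.73%, and in 17.7% against 11.5%. Ctla4 with Lag3 was seen in 12.2% against 6.0%, and in 11.5% against 7.16%. Whether a mixture of resting and activated cells within a class takes part in this was not tested.

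Cd274 and Pdcd1lg2 were followed in the antigen-presenting classes. Cd274 in the dendritic class had 237 UMIs in 110 of 241 cells at 12 weeks (73.2 CPM, 64.2 to 83.2) and 82 UMIs in 36 of 89 cells at 7 weeks (60.7 CPM, 48.2 to 75.3). The intervals overlap, and the ratio was 1.21 (0.935 to 1.57). At equal depth 15.9% and 13.4% of cells held a UMI, against 5.54% and 6.36% of Ccl5-low and 4.0% and 3.16% of Ccl5-high CD8 T cells. The class level was 2.83-fold (1.97 to 4.18) and 2.64-fold (1.43 to 5.31) that of the Ccl5-low CD8 T cells, and 3.99-fold (3.08 to 5.23) and 2.77-fold (1.79 to 4.42) that of B cells.

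B cells held Cd274 at 18.3 and 21.9 CPM, a ratio of 0.838 (0.538 to 1.34), and in 4.07% and 4.88% of cells at equal depth. That share is below the 5.54% and 6.36% of Ccl5-low CD8 T cells and not below the 4.0% and 3.16% of Ccl5-high ones. Neither T cell class was shown to lack the gene, so no background is set here and expression in B cells is not judged. In the macrophage class Cd274 had 28 UMIs at 12 weeks (58.1 CPM) and 3 UMIs at 7 weeks (23.4 CPM) in 34 and 11 cells, a ratio of 2.48 (0.766 to 12.8). CD4 T cells carried it at 28.0 and 41.7 CPM, a ratio of 0.672 (0.523 to 0.864), in 7.02% and 9.68% of cells. In Foxp3+ T cells it stood at 21.3 and 42.8 CPM, its ratio being 0.498 (0.275 to 0.875), which came to 1.02 without cycling cells.

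Pdcd1lg2, the more restricted PD-1 ligand, was low in every class. It had 34 UMIs in 25 dendritic-class cells at 12 weeks (10.5 CPM) and 18 UMIs in 11 such cells at 7 weeks (13.3 CPM), and 15.8 and 11.7 CPM in B cells. CD4 T cells held more of it in CPM than the dendritic class, 24.1 CPM (20.1 to 28.8) and 29.9 CPM (23.9 to 37.0). In Ccl5-low CD8 T cells there were 19 UMIs at 12 weeks and 1 at 7 weeks, a ratio of 7.54 (1.20 to 313) that rests on that single molecule. Foxp3+ T cells had 36.2 and 22.0 CPM, with a ratio of 1.65 (0.923 to 3.03).

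Within the dendritic class, 3 subsets defined by their own markers after values were seen were read for Cd274, Havcr2 and Lag3, and each held few cells. Ccr7 and Fscn1 are genes of migratory dendritic cells, and the first subset needed 5 or more UMIs of the 2 summed, so Fscn1 could be absent. Ccr7 also led the dendritic list in CD4 T and B cells, and the share of such cells in this subset was not tested. The 21 and 11 cells of the subset had Cd274 at 121 and 82.4 CPM. That was 11.3-fold (2.91 to 97.3) the level of the Siglech subset at 12 weeks and 1.49-fold (0.516 to 5.25) at 7 weeks, where the interval takes in 1. The 27 and 8 cells with Xcr1 or Clec9a, genes of cross-presenting dendritic cells, had Havcr2 at 93.2 and 45.6 CPM, on 43 and 8 UMIs, with overlapping intervals. The whole dendritic class had it at 63.3 and 65.8 CPM, so at 7 weeks this subset was not above its class. TIM-3 is a known surface protein of that subset. The 19 and 7 cells with Siglech, a gene of plasmacytoid dendritic cells, had Lag3 at 299 CPM (226 to 388) and 320 CPM (214 to 460), in 15 of 19 and 7 of 7 cells, and LAG-3 is known from these cells in the mouse. Lag3 there was 7.86-fold (4.07 to 16.6) and 2.33-fold (1.32 to 4.15) the level in the Ccr7 subset. Over the whole dendritic class the Lag3 ratio of 12 to 7 weeks was 0.719, and 3.82 without cells that hold Cd3 UMIs. The part of such cells in the Siglech subset was not tested.

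**Figure D4:**
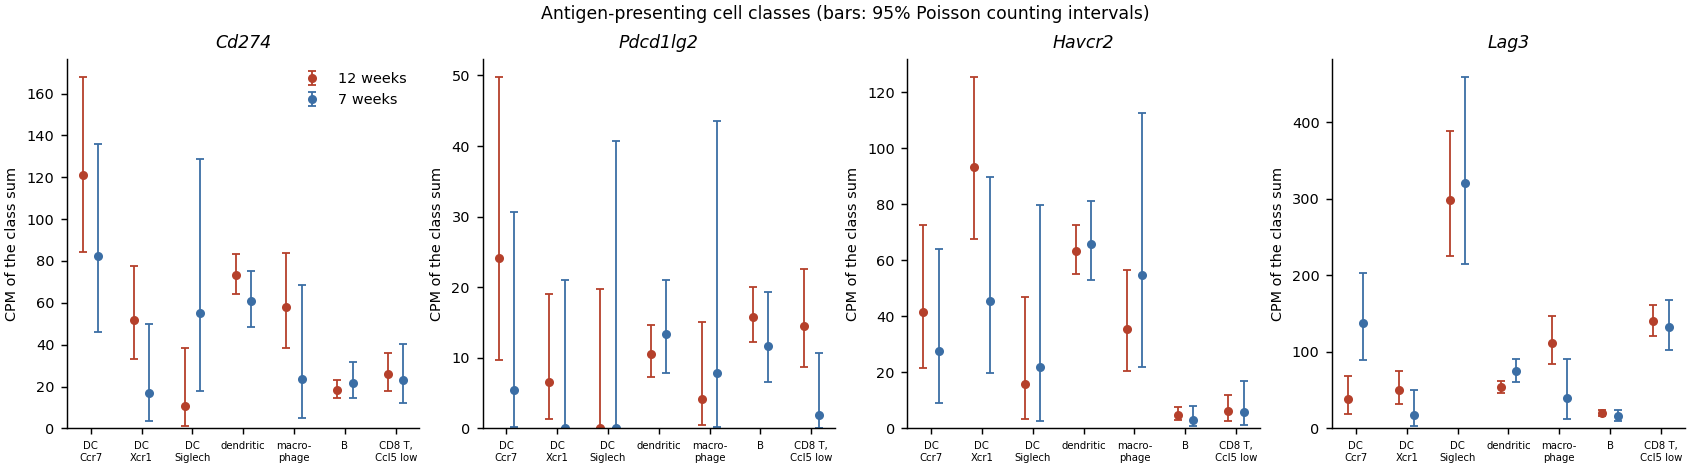
CPM of the class sum (vertical axis) for Cd274, Pdcd1lg2, Havcr2 and Lag3 in 3 dendritic subsets, the dendritic, macrophage and B classes and, for comparison, Ccl5-low CD8 T cells (horizontal axis), with 12 weeks in red and 7 weeks in blue. Points are 1 library each and bars are 95% Poisson counting intervals. Lag3 stands at 299 and 320 CPM in the Siglech subset and Cd274 at 121 and 82.4 CPM in the Ccr7 subset.

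Over the whole dendritic class Havcr2 stood at 63.3 and 65.8 CPM, its ratio being 0.962 (0.747 to 1.25), 12.8-fold (8.17 to 21.2) and 21.1-fold (7.95 to 79.0) the B cell level. Of 5 receptor genes of sufficient depth, 3 were past 1.5-fold lower at 12 weeks and 0 higher, against 12.1% of all genes lower and 12.3% higher. These 3 were Pdcd1 (4.94 and 12.6 CPM), Ctla4 (7.42 and 36.3 CPM) and Cd200 (28.4 and 68.1 CPM). T cell markers in the class stood at 136 and 561 CPM. In the 133 and 31 dendritic-class cells with no Cd3 UMI, Ctla4 stood at 4.55 and 5.28 CPM and Cd200 at 26.0 and 21.1 CPM. Havcr2 stood at 70.9 and 100 CPM and Cd274 at 80.0 and 66.0 CPM in them. The Cd200 difference thus did not keep its direction there. Nor did Lag3, whose ratio of 12 to 7 weeks was 0.719 in the whole class and 3.82 in these cells. In B cells 2 of 5 receptor genes were past 1.5-fold higher and 1 lower, against 10.4% of all genes higher and 11.7% lower. These were Pdcd1 and Havcr2, at 4.94 to 11.3 CPM at 12 weeks, and Ctla4, with 87.9% of its 66 UMIs at 7 weeks in 5 cells. In B cells with no UMIs of another lineage the Pdcd1 and Havcr2 ratios were 0.546 and 0.970, on the other side of 1, and Ctla4 stood at 2.56 and 7.55 CPM. In the macrophage class 1 of 2 receptor genes was past 1.5-fold higher, Lag3 at 112 and 39.1 CPM on 54 and 5 UMIs, and 1 lower, Havcr2 at 35.3 and 54.7 CPM, against 21.8% of all genes higher and 18.2% lower.

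Genes that act with the receptors were read as 4 lists: 26 partners (costimulatory and other inhibitory receptors and ligands), 14 signalling genes, 22 regulators (transcription factors and markers of activated or exhausted T cells) and 13 inducers of PD-L1 (interferon and cytokine genes), counted where they had 20 or more UMIs. In Ccl5-high CD8 T cells 1 of 17 partners was past 1.5-fold higher and 1 lower, 1 of 14 signalling genes higher and 0 lower, 3 of 20 regulators higher and 1 lower, and 1 of 9 inducers higher and 0 lower, beside the 11.3% and 9.98% of all genes. Their median log2 ratios of 0.24, 0.12, 0.15 and 0.14 stood near the 0.06 of all genes, below the 0.73 of the receptor genes. Dok1, an adaptor that limits antigen receptor signalling, stood at 48.8 and 19.1 CPM with a ratio of 2.55 (1.49 to 4.66), and Ikzf2, encoding the transcription factor Helios, at 113 and 62.1 CPM with 1.82 (1.33 to 2.51). The interferon-gamma gene Ifng did not part between the ages, at 248 and 244 CPM, and Cxcr6, a homing receptor gene of tissue T cells, stood at 422 and 454 CPM. Ifngr1, a subunit of the interferon-gamma receptor, had a ratio of 1.53 (1.21 to 1.96) and the interferon response factor gene Irf1 one of 0.679 (0.551 to 0.839), the lowest of the 13 genes selected from the lists for this class, of which Dok1 was the highest and 3 were past 1.5-fold.

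In Ccl5-low CD8 T cells 1 of 14 partners was higher and 2 lower, 0 of 14 signalling genes higher and 1 lower, 1 of 15 regulators higher and 4 lower, and 2 of 10 inducers higher and 2 lower, beside 13.3% of all genes each way. The median log2 ratios of the lists were -0.06, -0.09, -0.36 and 0.10, and that of the receptor genes -0.41, against 0.01 for all genes. Ikzf2 stood at 45.6 and 209 CPM, its ratio being 0.218 (0.157 to 0.302), and Maf, a transcription factor gene of helper and regulatory T cells, had a ratio of 0.271 (0.123 to 0.579). Ikzf2 thus lay on opposite sides of 1 in the CD8 classes, as a description of 2 ratios whose difference was not tested. Ifngr1 was higher at 12 weeks, with 190 and 95.9 CPM, and its ratio was 1.98 (1.46 to 2.74). Of the 14 genes selected for this class 4 were past 1.5-fold, with Ikzf2 the lowest and Ifngr1 the highest.

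In CD4 T cells 1 of 19 partners was higher and 2 lower, 0 of 14 signalling genes past 1.5-fold either way, 0 of 21 regulators higher and 6 lower, and 1 of 12 inducers higher and 2 lower, beside 6.9% of all genes higher and 11.2% lower. The median log2 ratios were -0.07, -0.03, -0.15 and -0.04, and -0.15 for the receptor genes, against -0.01 for all genes. Nr4a1 and Nr4a2, transcription factor genes induced within hours of antigen receptor signalling, stood at 64.2 and 141 CPM and at 29.5 and 66.9 CPM, with ratios of 0.454 (0.391 to 0.527) and 0.441 (0.354 to 0.548). Il10 stood at 43.3 and 83.3 CPM (0.520, 0.431 to 0.627) and Ifng at 102 and 175 CPM (0.581, 0.513 to 0.658). Of the 16 selected genes 6 were past 1.5-fold, with ratios between 0.441 and 1.35. In Foxp3+ T cells 0 of 17 partners were higher and 6 lower, 1 of 14 signalling genes higher and 2 lower, 3 of 20 regulators higher and 7 lower, and 0 of 11 inducers higher and 3 lower, beside 14.3% of all genes higher and 16.2% lower. The median log2 ratios were -0.12, -0.17, -0.40 and -0.33, and 0.26 for the receptor genes, against 0.03 for all genes. Il10 had a ratio of 0.297 (0.215 to 0.403) there and Nr4a1 one of 0.428 (0.321 to 0.565), while Sh2d1a, the adaptor SAP, stood at 277 and 154 CPM with 1.80 (1.46 to 2.23). Of the 15 selected genes 8 were past 1.5-fold, the lowest being Lair1, an inhibitory receptor gene that myeloid cells also express, with 1 UMI at 12 weeks and 33 at 7 weeks (0.0294, 0.000723 to 0.176). The 9 dendritic-rule cells of the 7 week class stand beside these counts as well. In the dendritic class 8 of 19 partners, 8 of 14 signalling genes, 10 of 19 regulators and 2 of 11 inducers were past 1.5-fold lower and 0 higher, among them the T cell kinase gene Lck at 26.0 and 115 CPM and Ikzf2 at 11.1 and 76.9 CPM, beside T cell markers at 136 and 561 CPM and 12.1% of all genes lower.

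Cells were also split within each library by whether a Pdcd1 UMI remained after thinning, which separates detection and not expression, since a cell without a UMI may express the gene. The expected numbers were 98.8 with and 120 without Pdcd1 among Ccl5-high CD8 T cells at 12 weeks, 35.9 with and 50.1 without at 7 weeks, and 200 with and 580 without, and 102 with and 206 without, among CD4 T cells without Foxp3. The genes named here were chosen after their values were seen. Tox, encoding a transcription factor of persistently stimulated T cells, had ratios of Pdcd1-detected over other cells of 1.94 (1.37 to 2.80) at 12 weeks and 2.75 (1.43 to 5.27) at 7 weeks in the CD8 cells, and 3.19 (2.41 to 4.21) and 2.66 (1.77 to 4.12) in the CD4 cells. Batf, an AP-1 family gene, had 1.79 (1.31 to 2.44) and 3.13 (1.76 to 6.01) in the CD8 cells, and 2.26 (1.80 to 2.82) and 1.61 (1.11 to 2.33) in the CD4 cells. Cxcr6 had 2.11 (1.63 to 2.70) and 2.21 (1.45 to 3.25) in the CD8 cells, and 3.64 (2.89 to 4.57) and 2.39 (1.61 to 3.55) in the CD4 cells. These 3 genes thus went with Pdcd1 in both classes and libraries.

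The cytokine genes Ifng and Il10 went with Pdcd1 in the CD4 cells. In CD4 T cells without Foxp3, Pdcd1-detected cells had 3.65-fold (2.76 to 4.75) the Ifng of the others at 12 weeks and 4.88-fold (3.46 to 6.98) at 7 weeks, and 5.02-fold (3.17 to 7.97) and 4.07-fold (2.0 to 8.56) the Il10. In Ccl5-high CD8 T cells Ifng had ratios of 1.14 (0.823 to 1.57) and 1.27 (0.761 to 2.11), whose intervals take in 1, and the difference from the CD4 cells was not tested. Slamf6, a gene of less differentiated CD8 T cells, had 0.582 (0.366 to 0.921) at 12 weeks and 1.12 (0.448 to 2.59) at 7 weeks in the CD8 cells.

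**Figure D5:**
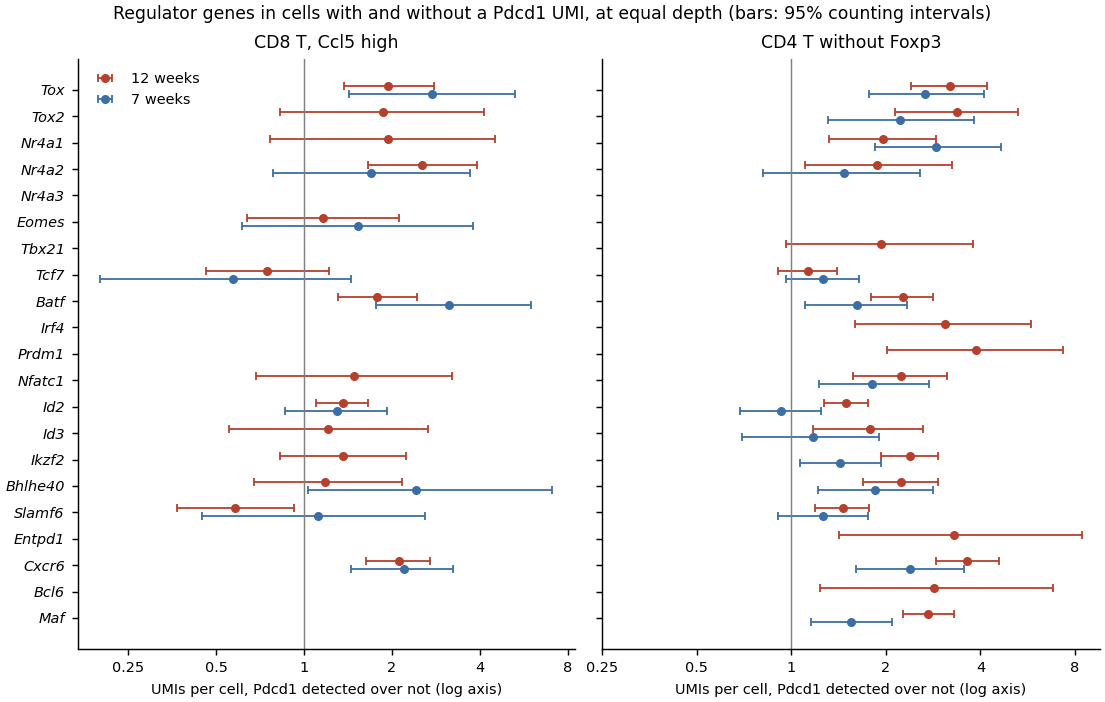
Ratio of UMIs per cell in cells with a Pdcd1 UMI over cells without one, at 2587 UMIs per cell (horizontal log axis), for the regulator genes (vertical axis) in Ccl5-high CD8 T cells and in CD4 T cells without Foxp3, with 12 weeks in red above 7 weeks in blue. Points are ratios, bars are 95% counting intervals, the line marks 1, and pairs with few UMIs are left blank. Tox, Batf and Cxcr6 lie right of the line in both classes at both ages.

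Over 16 class profiles, 8 classes without shared cells at each age, the genes most like each of 4 members were ranked by Pearson correlation of log2(CPM + 10) among 8112 genes with 200 or more UMIs. The profiles share 2 libraries and the correlations are a description. Pdcd1 was most like Ubash3a (0.955), Actn4 (0.932) and BC021614 (0.930), and its correlation with Lag3 was 0.886. Lag3 was most like Abracl (0.948), Fkbp1a (0.911) and Scamp3 (0.897), and Ctla4 most like Icos (0.939), Neb (0.928) and Il10 (0.918). Cd274 was most like Dnajb14 (0.891), Prkra (0.881) and Abca3 (0.864).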

How the data were processed

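Droplet libraries of CD45.1+ islet cells, 1 at 12 weeks and 1 at 7 weeks, were made with the 10x Genomics Chromium 3' kit, per the labels' protocols. The authors deposited raw UMI counts per gene and barcode, which are whole numbers and not normalized. The submitters' processing notes name Cell Ranger 1.3.1 and mm10, and the annotation and barcode filter are not given in the sources used here. A matrix of barcodes called as cells has already lost the shallowest droplets, so the depth range is set partly by that step.

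From these counts, barcodes with 200 or more genes and at most 10% mitochondrial UMIs were kept. Doublets were scored by Scrublet in scanpy 1.11.5 at an expected rate of 0.8% per 1000 cells. The automatic threshold marked 0.785% at 12 weeks and 22 cells were removed. At 7 weeks it marked 0.18%, under the 0.5% limit, so the 10 highest scores were removed instead. Class thresholds were, in UMIs, Cd8a + Cd8b1 at least 2 with no Cd4 (CD8 T cells), Cd4 at least 1 with no Cd8 (CD4 T cells), Foxp3 at least 1, Ncr1 at least 1, Cd79a at least 2 (B cells), C1qa, C1qb and C1qc together at least 10, and Cst3 and H2-Aa each at least 10 (dendritic class), with at least 1 Cd3 UMI for T cells. Cycling cells hold 3 or more UMIs of cell cycle genes. Classes may overlap, and cells of no class number 530 at 12 weeks and 238 at 7 weeks.

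Levels are CPM of the class sum with exact Poisson intervals, ratios carry exact conditional binomial intervals, shares exact Clopper-Pearson and their differences Newcombe intervals, all at 95% and for counting error only. The intervals of levels and ratios count every UMI as independent, also several from 1 cell, so they leave out the spread between cells. Thinning to 2587 UMIs was computed as the exact expectation, and its interval is that of the nearest whole number of cells. Calculations used Python 3.11.15, numpy 2.4.6, scipy 1.17.1 and pandas 2.3.3, and were tested on simulated data. The members, lists and subsets were chosen with earlier results of these data known. From each list and class, the 2 genes with the most UMIs and the 2 whose ratio interval lies furthest from 1 were selected. The text gives the range of the selected ratios in the T cell classes and names some of the genes, picked with their values known, and the others are not reported here. Other processing choices were tried for each result, and 4 of them were added after the data were seen.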

Additional observations from a re-analysis of the deposited data

Results flagged for a closer look

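Cd160 lay on opposite sides of 1 between the ages in 2 T cell classes. The ratio of 12 to 7 weeks was 2.22 in Ccl5-high CD8 T cells and 0.298 in CD4 T cells, from 242 and 50 UMIs in the CD8 cells and 26 and 47 UMIs in the CD4 cells. The difference between these ratios was not tested, since each rests on 1 library per age. The CD4 class held 5 cells at 12 weeks and 11 at 7 weeks that were also Ncr1+, whose part was not tested.

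Cd200 had a ratio of 1.87 in Ccl5-high CD8 T cells and 0.418 in the dendritic class, which was not tested either. In dendritic-class cells with no Cd3 UMI it stood at 26.0 and 21.1 CPM at 12 and 7 weeks.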

How the results depend on the processing

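Of 470 alternative values for 67 results, 433 stayed within the counting interval of the reported value (counts within 1.5 times), 30 moved beyond it and 7 took a value past 1.5-fold to the other side of 1. Counting also the values that were within 1.5-fold to begin with, 34 crossed 1, among them Pdcd1 in Ccl5-high CD8 T cells (0.901 to 1.22 over the alternatives), Lag3 in the dendritic class (3.82 without cells that hold Cd3 UMIs) and Pdcd1lg2 in that class (1.97 without them). No paired analysis was possible because each age has 1 library and the labels give no replicate numbers, and for the same reason no replicate could be left out. The counts of 3 receptor genes past 1.5-fold higher in Ccl5-high and 2 lower in Ccl5-low CD8 T cells did not change by more than 1.5 times under any alternative run. That limit lets a count of 3 fall to 2, and at a fold of 2 Cd200, with 1.87 in Ccl5-high cells, is no longer counted. The runs for these counts changed only the minimum UMIs or the fold, or left out dendritic-rule cells. In Foxp3+ T cells the count of receptor genes past 1.5-fold lower was 1 with a minimum of 50 UMIs and 3 with 20. The 7 were Cd160 at 2.98 in Foxp3+ cells of the CD4 class, Cd274 at 1.02 in Foxp3+ T cells without cycling cells, Pdcd1 in B cells at 0.546 without cells of another lineage and 0.933 without cycling cells, and Havcr2 in B cells at 0.970 without cells of another lineage and 0.872 as a mean over cells, and Cd200 in the dendritic class at 1.23 without cells that hold Cd3 UMIs. Ratios that moved were Cd160 in Ccl5-high CD8 T cells, 3.16 without the 5 richest cells, Pdcd1 in Ncr1+ cells, 0.101 without cycling cells, Cd200 in the dendritic class, 0.581 without the 5 richest cells, and Ctla4 in that class, 0.863 without cells that hold Cd3 UMIs. Ctla4 in B cells moved to 0.339 without cells of another lineage, 0.721 without cycling cells, 0.356 as a mean over cells and 0.744 without the 5 richest cells, from 0.191. The 12 minus 7 week difference in CD4 T cells with 2 or more receptor genes was -14.3 points unthinned. The causes were not tested, and leaving out 5 cells takes a larger part of a smaller class. Tigit reached 20 UMIs over both libraries in CD4 and Foxp3+ T cells only of the 8 classes, and the counting intervals of the Pdcd1lg2 ratio took in 1 in all of the 8 but Ccl5-low CD8 T cells.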

Other observations

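Of the UMIs of each member, between 6.0% (Havcr2 at 7 weeks) and 25.9% (Tigit at 7 weeks) fell in cells that met no class rule, so the classes do not account for every molecule.

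Ncr1+ cells with no Cd3 UMI numbered 13 at 12 weeks and 16 at 7 weeks. Lag3 stood at 196 and 111 CPM in them, on 17 and 11 UMIs, and Cd160 at 185 and 40.5 CPM, on 16 and 4 UMIs. In the Ncr1+ cells with Cd3 UMIs Cd160 stood at 172 and 177 CPM.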
